A study of Mus musculus with 13 samples.

Results

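The 5 genes described here encode myosin chains grouped here as ventricular: the heavy chains Myh6, Myh7 and Myh7b and the light chains Myl2 and Myl3. They were taken by symbol from the deposited count tables, so they are 5 of the 24061 gene symbols in each table, and all of them passed the filter on low counts. The tables come from poly(A) RNA of hearts of 13 male mice, 1 library per heart, in a study of a knock-in allele of Cpt1b named E3A. Cpt1b encodes the muscle form of carnitine palmitoyltransferase 1, which admits long-chain fatty acids to mitochondria, and the allele makes it less sensitive to its inhibitor malonyl-CoA. The groups were WT/WT (4 hearts), the heterozygotes WT/E3A (4 hearts) and the homozygotes E3A/E3A (5 hearts). Every mouse was of strain C57BL/6N, 13 weeks old and fed chow, and the labels name no treatment. The labels give the genotype of the whole animal, so heart muscle is not the sole tissue that bears the allele, and they do not say which hearts came from littermates.

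Myosin heavy chains carry the ATPase motor of the thick filament, and each binds an essential and a regulatory light chain at its neck. Myh6 encodes the fast alpha heavy chain that dominates the adult mouse heart, and Myh7 encodes the slow beta chain that dominates before birth and returns under pressure overload, low thyroid hormone or heart failure. Myl2 encodes the ventricular regulatory light chain, Myl3 the essential light chain shared by ventricle and slow muscle, and Myh7b a more distant heavy chain of slow and cardiac muscle. The ratio of Myh7 to Myh6 is widely used as a readout of cardiac stress, so it was followed heart by heart.

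The labels mark 4 libraries as potential outliers and give no reason: the first 2 replicates of E3A/E3A and the first of WT/E3A and of WT/WT. They are called the noted libraries here. The mark may have been made from these same libraries, so differences between noted and other libraries are a description of them, with the test given as a measure of size against spread. Depth did not set them apart, at 23.5 to 52.6 M counted reads against 20.1 to 41.5 M in the other 9. Titles begin with C2, C3, C4 or C6, a prefix whose meaning is unstated. All 3 libraries of C2 were noted, C4 held 1 noted and 2 other WT/E3A libraries with 1 E3A/E3A library, and C6 held only 2 WT/WT libraries. Each genotype comparison was therefore made in all 13 libraries and in the 9 that were not noted, 3 per genotype. The typical variation between hearts of 1 genotype (edgeR's biological coefficient of variation) was 28.9% in the first case and 7.85% in the second. Of the 3 WT/WT hearts among the 9 libraries, 2 had prefix C6, which no other genotype had. Prefix and genotype therefore cannot be fully told apart in comparisons with WT/WT there.

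Myh6 and Myh7 stand head to tail on the minus strand of chromosome 14 (GRCm38, chr14:54941921-54966927 and chr14:54970684-54994626), 3756 bases apart. Myh7b lies at chr2:155611212-155634307, Myl2 at chr5:122100951-122113472 and Myl3 at chr9:110741861-110769798, all on the plus strand. Each of the 3 heavy chain genes carries a microRNA in an intron, and the mature forms are shown because they tie the host genes to a family of related regulators. Capitals mark the seed, bases 2 to 8, and the sequences are those of RefSeq on GRCm38.p6.
mmu-miR-208a-3p: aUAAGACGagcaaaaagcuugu
mmu-miR-208b-3p: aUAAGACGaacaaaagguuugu
mmu-miR-499-5p: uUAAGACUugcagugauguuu
The miR-208a form is read from intron 29 of 38 of Myh6 (chr14:54949072-54949093, minus strand), and the miR-208b form from intron 31 of 40 of Myh7 (chr14:54975710-54975731, minus strand). The miR-499 form is read from intron 19 of 41 of Myh7b (chr2:155622893-155622913, plus strand). The microRNAs of Myh6 and Myh7 share their seed and differ at 3 of 22 positions, G10A, A16G and C18U from the first to the second, counted from the 5′ end. The miR-499 seed differs from theirs by its last base, G8U in the numbering from the 5′ end. Poly(A) libraries do not measure mature microRNAs, so their levels are not given.

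How far reads of the neighbouring heavy chains can be told apart depends on how alike the mRNAs are. The principal transcripts of Myh6 (6113 bases, 39 exons) and Myh7 (6135 bases, 41 exons) were 90.2% identical over 6047 aligned bases. Myh7b (6163 bases) was 72.0% identical to Myh6 and 71.5% to Myh7. Below are a coding stretch where Myh6 and Myh7 are the same over 200 bases (Myh6 exon 36, chr14:54944348-54944547, and Myh7 exon 38, chr14:54972758-54972957) and the 60-base coding window where they differ most, at 24 positions in capitals (Myh6 exon 25, chr14:54952277-54952336, and Myh7 exon 27, chr14:54980352-54980411). All are on GRCm38, minus strand.
Myh6 and Myh7, identical: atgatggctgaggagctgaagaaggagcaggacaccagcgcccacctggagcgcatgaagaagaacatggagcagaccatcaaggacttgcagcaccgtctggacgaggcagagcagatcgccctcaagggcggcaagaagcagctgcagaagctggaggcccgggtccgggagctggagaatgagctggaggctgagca
Myh6, most different: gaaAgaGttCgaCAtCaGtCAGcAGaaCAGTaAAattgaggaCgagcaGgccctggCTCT
Myh7, most different: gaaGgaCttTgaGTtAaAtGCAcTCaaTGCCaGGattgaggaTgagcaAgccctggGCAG
Reads were 100 bases long, and 11.4% of all 100-base windows of each of these mRNAs occur unchanged in the other, whereas windows of Myh7b, Myl2 and Myl3 occur in no other annotated gene. How the counting treated reads that fit both genes is not given in the sources used here. Rows of the near-identical adult globin genes Hba-a1, Hba-a2, Hbb-bs and Hbb-bt list 0 reads in all 13 libraries. Antisense transcripts also overlap exons of Myh7, by 1273 bases for Mhrt and 2976 bases for Gm31251, and whether the counting used strand is not stated. The counts of Myh6 and Myh7 are thus less certain than those of the other 3 genes.

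In the 9 libraries that were not noted, Myh6 had the most reads of all genes listed, as it did in the noted libraries. No mitochondrially encoded gene was among the symbols, so ranks and shares of reads leave those genes out. CPM are reads of a gene per M reads of its library, after TMM scaling. The TMM factors, 0.805 to 0.955 in the noted libraries and 1.032 to 1.086 in the rest, raise the noted values and lower the others. Per kilobase of principal transcript, Myl2 was highest at 8302 ± 296 CPM per kb (SD, n = 9), then Myh6 at 6507 ± 352 and Myl3 at 5113 ± 149. Myh7 followed at 109.6 ± 7.37 CPM per kb and Myh7b at 38.2 ± 2.87. No neighbours in this order of levels overlapped in any of the 9 hearts. In the noted libraries Myh6 (11301 to 19306 CPM per kb) and Myl3 (11425 to 18418) overlapped each other, and both lay above Myl2 (6868 to 10278). The 5 genes together took 5.11% to 5.79% of reads in the 9 hearts and 8.42% to 11.3% in the noted ones. The least counted member, Myh7b, had 5322 reads in its lowest library, so counting error was small beside its spread over the 9 hearts (coefficient of variation 7.51%).

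**Figure D1:**
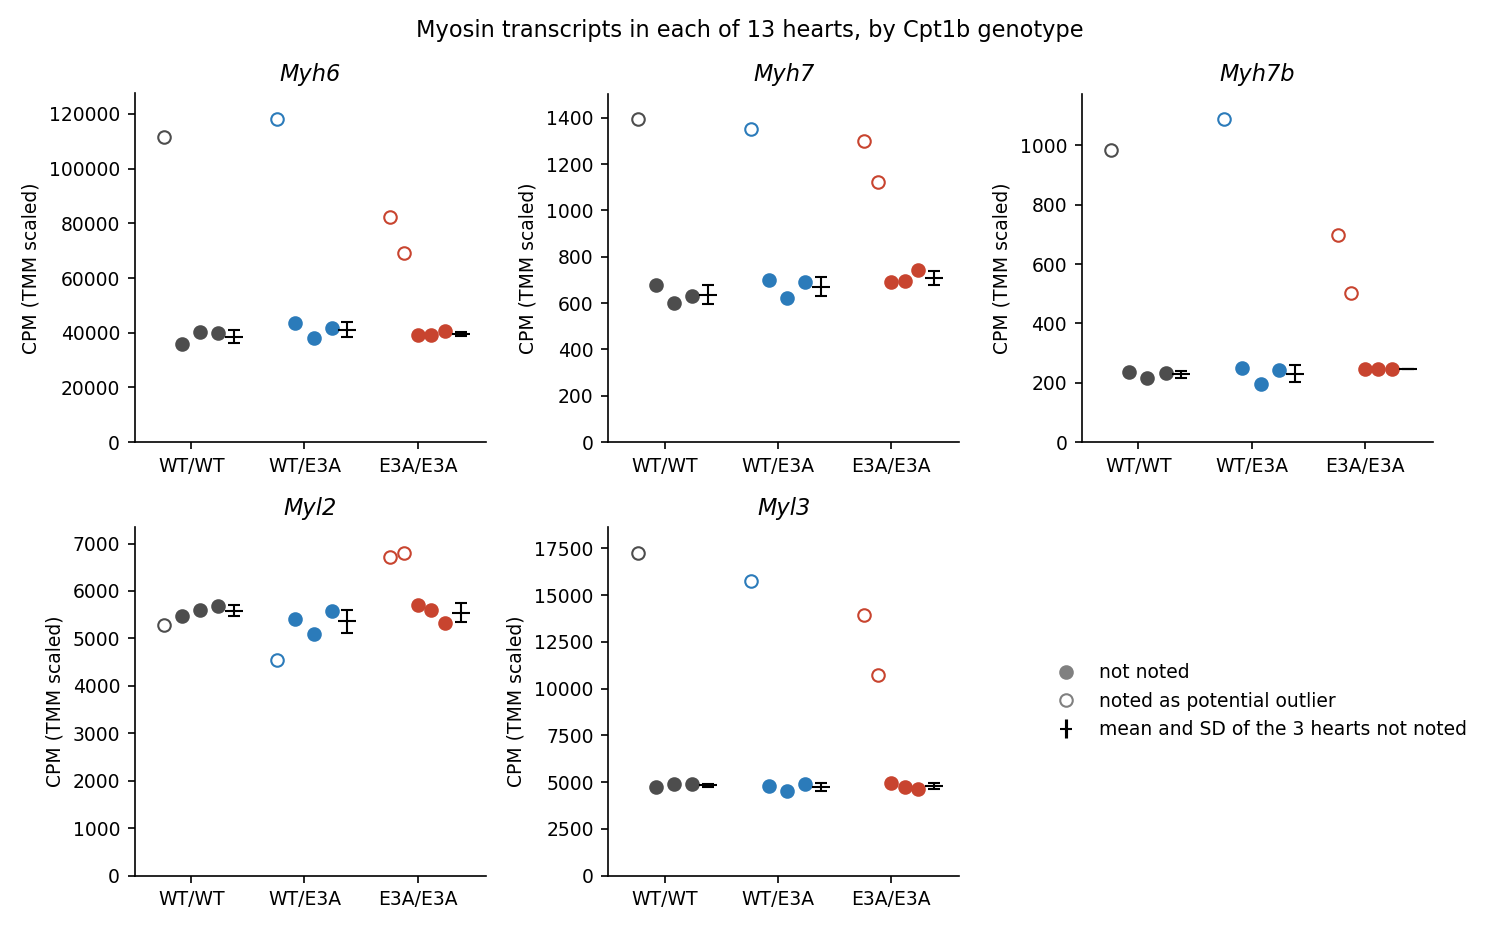
CPM after TMM scaling (linear axes from 0) of each myosin gene in each of 13 hearts, by genotype; filled circles are libraries without a note, open circles are noted as potential outlier, and bars are the mean and SD of the 3 hearts not noted. For Myh6, Myh7, Myh7b and Myl3 every open circle lies above every filled one, whereas for Myl2 they mix.

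The first question was whether the E3A allele moved the myosin genes. None of the 5 was called in any of the 3 genotype comparisons, either in 13 libraries or in 9 (edgeR's quasi-likelihood test, adjusted p under 0.05). Few genes were called at all: 0.00695% of 14387 in E3A/E3A against WT/WT, 0.0% in heterozygotes against WT/WT, and 0.0% in homozygotes against heterozygotes. Shares in the 9 libraries were 0.271%, 0.0209% and 0.0417% of 14373 genes, in the same order. At an unadjusted p under 0.05 the 13 libraries gave 173, 117 and 208 genes, and the 9 libraries 1105, 914 and 993. The comparisons share their control hearts, so their values are set side by side and not counted as separate evidence.

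Myh6, the main motor of the adult mouse ventricle and atrium, read 111594, 35929, 40104 and 39794 CPM in WT/WT replicates 1 to 4. It read 118015, 43606, 38248 and 41684 CPM in WT/E3A replicates 1 to 4, and 82304, 69082, 39069, 39093 and 40494 CPM in E3A/E3A replicates 1 to 5. The first replicate of WT/WT and of WT/E3A and the first 2 of E3A/E3A, the noted libraries, stood far above the rest, and the 9 others overlapped fully between genotypes. Their means were 38609 ± 2326 CPM in WT/WT, 41179 ± 2715 in WT/E3A and 39552 ± 816 in E3A/E3A (SD, n = 3 each). The log2 fold change of E3A/E3A over WT/WT was 0.04 (SE 0.06, adjusted p 0.951) in 9 libraries, where that of WT/E3A over WT/WT was 0.09 (SE 0.06, adjusted p 0.829). In 13 libraries the values were -0.07 (SE 0.44) and 0.09 (SE 0.47), with adjusted p 1.0 for both.

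Myh7, the slow beta chain of the fetal and stressed heart, read 1393, 679.3, 600.6 and 630.4 CPM in WT/WT replicates 1 to 4. It read 1351, 700.2, 623.4 and 690.4 CPM in WT/E3A, and 1301, 1124, 691.0, 694.2 and 743.6 CPM in E3A/E3A, in replicate order. Among the 9 libraries that were not noted, the 3 E3A/E3A hearts lay above the 3 WT/WT hearts by a narrow margin, and WT/E3A overlapped both. Of all genes tested, 7.19% had every E3A/E3A heart above every WT/WT heart in these libraries, so the separation is no result by itself. The log2 fold change of E3A/E3A over WT/WT was 0.16 (SE 0.06), with an unadjusted p of 0.0183 and an adjusted p of 0.48. Within prefix C3 the single WT/WT heart read 679.3 CPM and the 2 E3A/E3A hearts 691.0 and 743.6. Within prefix C2, where every library was noted, the order turned, with 1393 CPM in WT/WT and 1301 and 1124 in E3A/E3A.

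Myh7b, the distant slow-type heavy chain, read 985 (noted), 237.6, 216.7 and 231.6 CPM in WT/WT and 1088 (noted), 250.6, 197.4 and 244.1 CPM in WT/E3A. In E3A/E3A it read 698 and 503 CPM in the noted hearts and 246.4, 247.2 and 246.5 CPM in the others. The 3 last values lay just above WT/WT, as for 7.19% of all genes, and inside the range of WT/E3A. They nearly coincided, closer than counting error alone would usually leave them, so this closeness is no result by itself. The log2 fold change of E3A/E3A over WT/WT in 9 libraries was 0.11 (SE 0.07, adjusted p 0.814), and that of WT/E3A over WT/WT was 0.01 (SE 0.07, adjusted p 0.987).

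Myl2, the regulatory light chain, read 5291 (noted), 5470, 5598 and 5689 CPM in WT/WT and 4546 (noted), 5414, 5094 and 5574 CPM in WT/E3A. E3A/E3A hearts read 6715 and 6804 CPM (both noted) and 5698, 5605 and 5320 CPM. The highest values of the series were thus the 2 noted E3A/E3A hearts and the lowest was the noted WT/E3A heart. In 13 libraries E3A/E3A exceeded WT/E3A by 0.23 on the log2 scale (SE 0.10, unadjusted p 0.0468, adjusted p 1.0). In the 9 libraries that difference was 0.05 (SE 0.05, adjusted p 0.868).

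Myl3, the essential light chain, held closest of all to 1 level in the libraries that were not noted: 4751, 4899 and 4882 CPM in WT/WT, 4802, 4518 and 4911 in WT/E3A, and 4944, 4765 and 4646 in E3A/E3A. The noted hearts read 17258 CPM (WT/WT), 15753 CPM (WT/E3A), and 13925 and 10706 CPM (E3A/E3A). The 9 values overlapped between genotypes. Log2 fold changes in those libraries were -0.02 (SE 0.05, adjusted p 0.978) for E3A/E3A over WT/WT and -0.03 (SE 0.05, adjusted p 0.933) for WT/E3A over WT/WT. Over the 9 hearts the coefficients of variation were 2.92% for Myl3, 3.56% for Myl2, 5.41% for Myh6, 6.72% for Myh7 and 7.51% for Myh7b, beside a median of 4.67% over genes of at least 100 CPM.

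Atria also express Myh6, and the 8 atrial marker genes varied more than the myosin genes. They were also low beside them, with Myl4 at 33.0 ± 23.7 CPM in the 9 libraries. Their summed level ran from 159.6 to 294 CPM in WT/WT, 173.6 to 345 in WT/E3A and 248 to 525.8 in E3A/E3A among the 9 libraries, with no marker at 0 in any group. A large part of these sums was Nppa, also listed with the fetal and stress genes, with means of 132.9, 138.1 and 214.4 CPM in the same order of genotypes. All 8 markers had positive log2 fold changes for E3A/E3A over WT/WT in the 9 libraries, with a median of 0.69, and none was called. Their part in the myosin values was not tested. In bulk heart RNA, fewer cells of a type and less RNA per cell cannot be told apart.

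**Figure D2:**
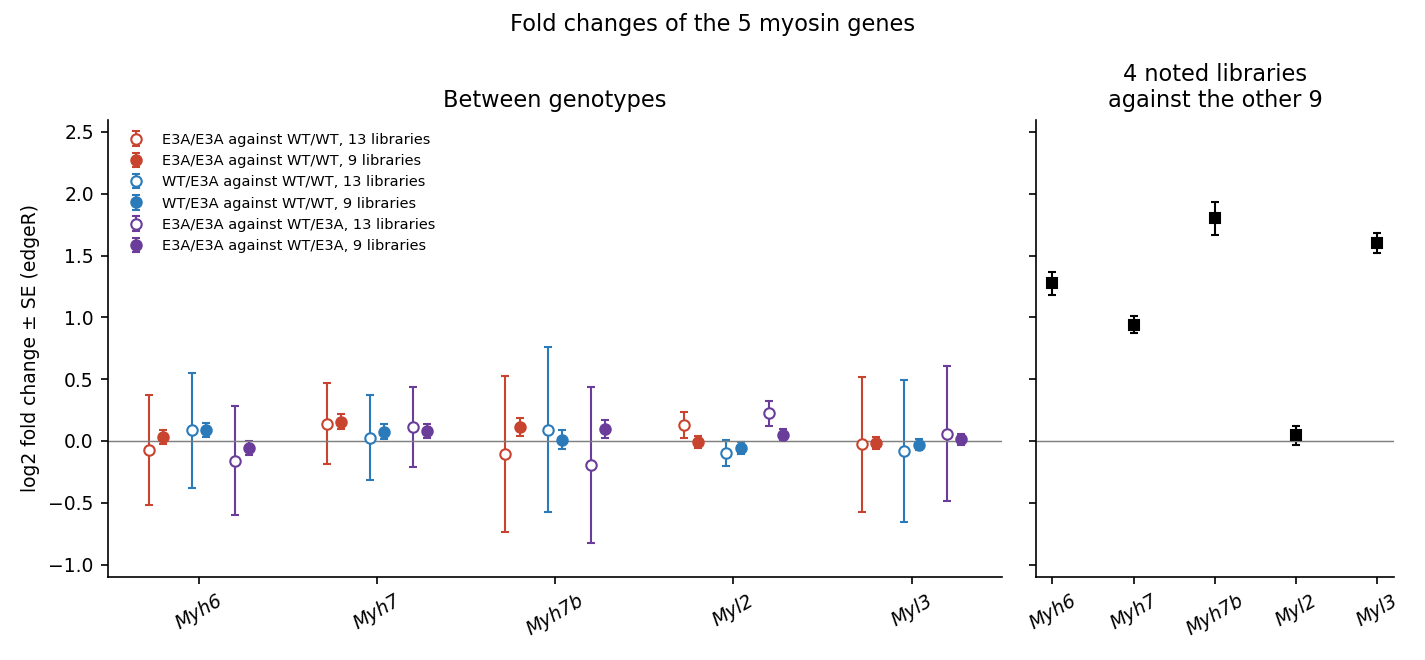
Log2 fold changes with standard errors (edgeR) of the 5 myosin genes: left, the 3 genotype comparisons in 13 (open) and 9 (filled) libraries; right, the 4 noted libraries against the other 9. Genotype differences lie near 0, with wide bars in 13 libraries, and Myh6, Myh7, Myh7b and Myl3 stand between 0.94 and 1.80 on the right while Myl2 stands at 0.05.

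The Myh7 to Myh6 ratio was taken within each heart, which removes the library's scaling. There were 1.25, 1.89, 1.498 and 1.58 Myh7 reads per 100 Myh6 reads in WT/WT replicates 1 to 4, and 1.15, 1.61, 1.63 and 1.66 in WT/E3A replicates 1 to 4. E3A/E3A replicates 1 to 5 had 1.58, 1.63, 1.77, 1.78 and 1.84. Beta chain transcripts were thus a small minority in every heart, and the lowest ratios belonged to the noted WT/E3A and WT/WT hearts. The mean was 1.55 ± 0.27 in WT/WT (SD, n = 4), 1.51 ± 0.24 in WT/E3A (n = 4) and 1.72 ± 0.11 in E3A/E3A (n = 5).

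Exact two-sided permutation tests of the log2 ratio gave p = 0.254 for E3A/E3A against WT/WT (1.115-fold), 0.829 for WT/E3A against WT/WT (0.970-fold) and 0.103 for E3A/E3A against WT/E3A (1.15-fold). Adjusted over these 3, the exact values were 0.381, 0.829 and 0.31. In the 9 libraries E3A/E3A (1.77, 1.78 and 1.84) lay above WT/E3A (1.61, 1.63 and 1.66) without overlap, with an exact permutation p of 0.1, which is the smallest that 3 against 3 hearts allow. WT/WT spread over both, from 1.498 to 1.89, so E3A/E3A did not separate from WT/WT (exact permutation p = 0.4). Within prefix C3 the WT/WT heart had the higher ratio, 1.89 against 1.77 and 1.84 in E3A/E3A. How reads from the 11.4% of windows that Myh6 shares with Myh7 were counted is not given, and their part in these ratios was not tested.

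**Figure D3:**
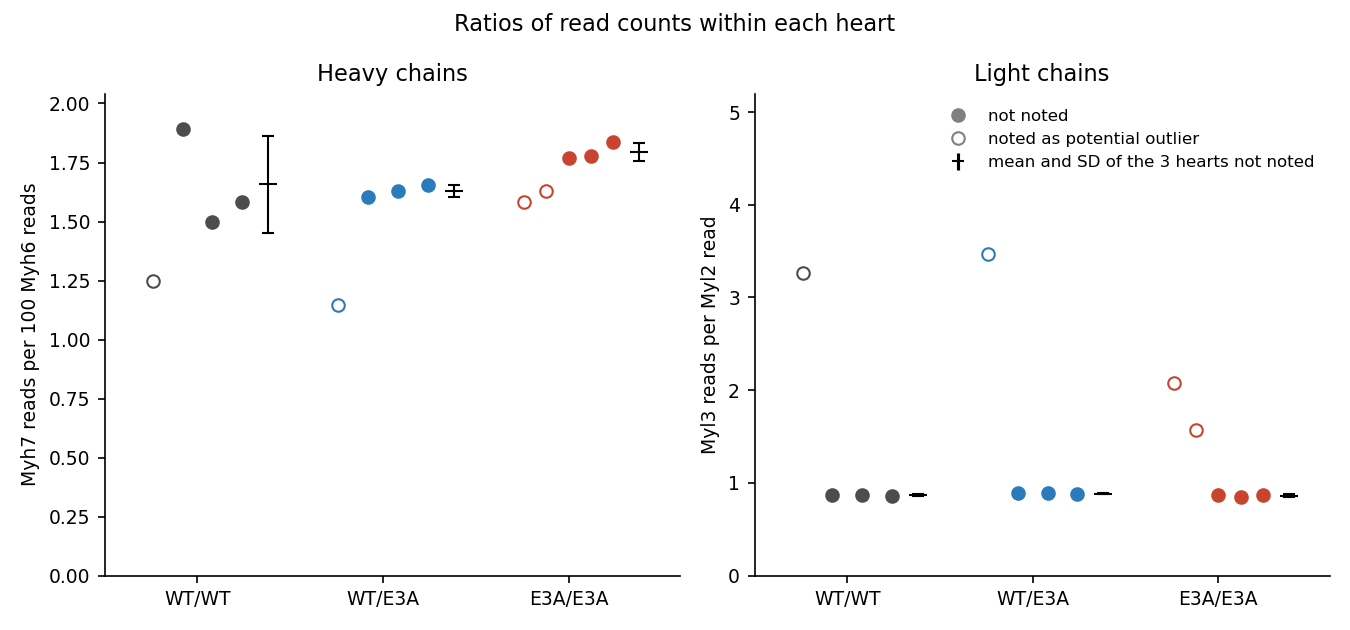
Ratios of read counts within each heart (linear axes from 0), by genotype: left, Myh7 reads per 100 Myh6 reads; right, Myl3 reads per Myl2 read; open circles are noted libraries and bars are the mean and SD of the 3 hearts not noted. The heavy chain ratio overlaps between WT/WT and E3A/E3A, and the light chain ratio lies between 0.850 and 0.887 in all filled circles and from 1.57 to 3.47 in the open ones.

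The noted libraries differed from the rest in most genes: 75.2% of 14387 were called at a noted-against-rest term fitted beside genotype, 5320 higher and 5500 lower. With total counts in place of TMM scaling the split became 3324 higher and 7566 lower, and the median log2 fold change of all genes moved from -0.02 to -0.31. Against that background, Myh6, Myh7, Myh7b and Myl3 were called higher in the noted libraries, and Myl2 was not called. The 4 noted hearts lay above all 9 others for those 4 genes, as they did for 25.9% of all genes.

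Myl3 ran at 14410 ± 2821 CPM in the noted libraries (SD, n = 4) and 4791 ± 139.7 in the rest (n = 9), a log2 fold change of 1.60 (SE 0.08, adjusted p 2.72e-08). Myh7b ran at 819 ± 267 against 235 ± 17.7 CPM, the largest shift of the 5 at 1.80 (SE 0.14, adjusted p 1.5e-07). Myh6 ran at 95249 ± 23365 against 39780 ± 2152 CPM, with 1.27 (SE 0.09, adjusted p 1.31e-07). Myh7 moved least of the 4, from 673 ± 45.2 to 1292 ± 118.2 CPM, with 0.94 (SE 0.07, adjusted p 1.27e-07). Few genes moved as far upward: 0.48% of genes had at least the log2 value of Myh7b, 1.01% that of Myl3, 3.48% that of Myh6 and 8.8% that of Myh7. With total counts alone the log2 values were 1.503, 1.31, 0.98 and 0.65 in that order of genes, all still called.

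Myl2 did not follow the other light chain. It ran at 5839 ± 1106 CPM in the noted libraries and 5496 ± 196 in the rest, a log2 fold change of 0.05 (SE 0.08, adjusted p 0.597). Its direction depended on the scaling, since total counts alone gave -0.24 with an adjusted p of 0.0482. The ratio of the light chains shows the split without any scaling: there were 0.850 to 0.887 Myl3 reads per Myl2 read in the 9 hearts, with a mean of 0.872 ± 0.0125. The noted hearts had 3.26 (WT/WT), 3.47 (WT/E3A), and 2.07 and 1.57 (E3A/E3A).

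The heavy chain ratio moved less. There were 1.4 ± 0.24 Myh7 reads per 100 Myh6 reads in the noted libraries (n = 4) and 1.69 ± 0.13 in the rest (n = 9), a 0.820-fold ratio with an exact two-sided permutation p of 0.014. When the note was permuted within genotype the exact p was 0.00625, the smallest that design can give. Without the noted WT/E3A heart the difference fell from -0.29 to -0.20 on the log2 scale, with an exact permutation p of 0.0591.

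The shift was not equally large in every genotype. Noted over other libraries, Myh6 was 2.89-fold in WT/WT and 2.87-fold in WT/E3A but 1.91-fold in E3A/E3A. Myl3 was 3.56-fold, 3.32-fold and 2.57-fold, and Myh7b 4.31-fold, 4.72-fold and 2.44-fold, in the same order of genotypes. Myl2 was 0.947-fold, 0.848-fold and 1.22-fold, so it was higher in the noted libraries of E3A/E3A alone. The TMM factors of the noted hearts were 0.83 (WT/WT), 0.805 (WT/E3A), and 0.924 and 0.955 (E3A/E3A), the last 2 nearest those of the other libraries. Genotype and how far a single noted heart departs from the rest cannot be told apart here. The test of the difference between genotypes gave adjusted p = 0.00503 for Myh6, 0.00636 for Myh7b, 0.00334 for Myl2 and 0.0439 for Myl3, and 0.111 for Myh7 (2.19-fold, 2.01-fold and 1.71-fold). Of all genes, 22.5% passed that test. The value for Myl3 missed the threshold when any 1 of 10 other libraries was left out (adjusted p 0.054 to 0.109), and WT/WT and WT/E3A have only 1 noted heart each, assumed to vary like the others.

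Prefix and note overlap, but C4 holds both kinds in 1 genotype. There the noted WT/E3A heart read 118015 CPM of Myh6 against 38248 and 41684 in the other 2, and 15753 CPM of Myl3 against 4518 and 4911. With prefix as a block, the log2 values were 1.52 for Myh6, 1.02 for Myh7, 2.25 for Myh7b and 1.72 for Myl3. Every C2 library was noted and C3 and C6 held no noted one, so these values rest on that single heart, which is assumed to vary like the others. Prefix and note cannot be told apart in the other noted libraries.

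Longer transcripts tended to be lower in the noted libraries. The median log2 fold change fell from 0.39 for genes whose longest transcript is under 1 kb to -0.28 between 6 and 8 kb, over 13733 genes with a length. By principal transcript, the 3 heavy chains, at 6.11 to 6.16 kb, rose, against the sign of the median between 6 and 8 kb. Myl2, at 0.66 kb, stayed below the median of genes under 1 kb (0.05 against 0.39). Myl3, at 0.94 kb, moved in the direction of that median and beyond it (1.60). The part of transcript length in these values was not tested.

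**Figure D4:**
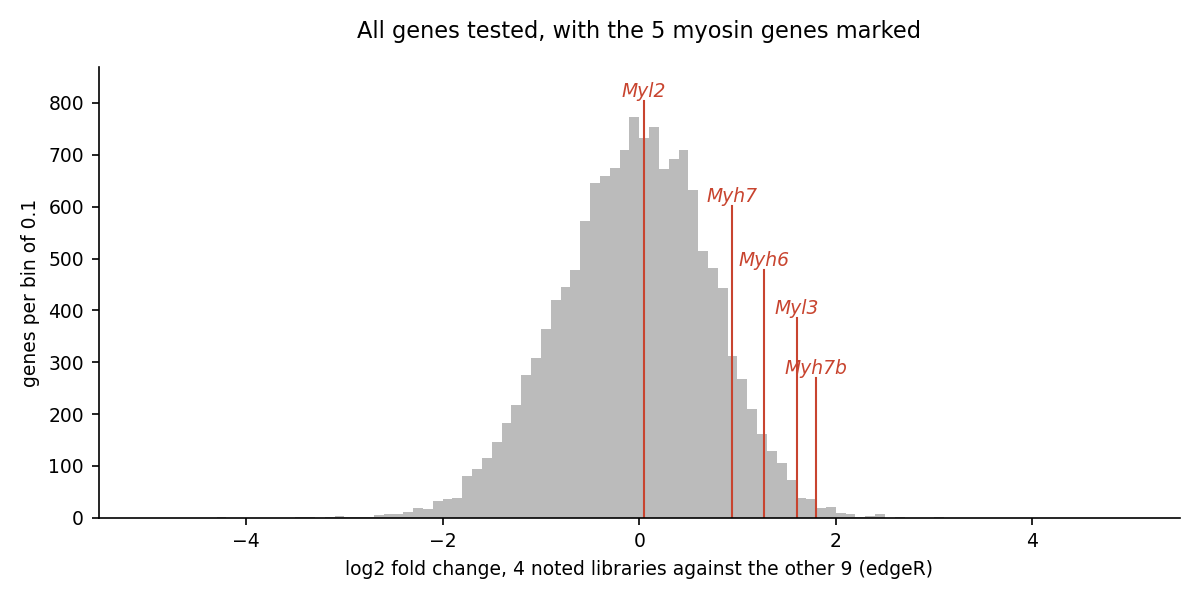
Number of genes per bin of 0.1 in log2 fold change, 4 noted libraries against the other 9 (edgeR, 14387 genes), with red lines at the 5 myosin genes. Myl2 (0.05) lies at the centre, and Myh7 (0.94), Myh6 (1.27), Myl3 (1.60) and Myh7b (1.80) lie on the right flank.

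The transcripts that overlap the heavy chain genes were followed as well. The row for Mir208b, whose hairpin lies in an intron of Myh7, ran at 60.1 ± 10.3 CPM in the noted libraries and 28.5 ± 2.65 in the rest, a log2 fold change of 1.11 (SE 0.08, adjusted p 1.27e-07). That is close in size to the shift of Myh7 itself. Mir208a, in the Myh6 intron, ran at 3.49 ± 0.47 against 2.45 ± 0.65 CPM, with 0.48 (SE 0.17, adjusted p 0.0213), and Mir499 stayed at or below 0.275 CPM in all libraries and was not tested. What RNA the reads of these rows came from was not tested. The row D830015G02Rik, an older symbol of Mhrt, the antisense RNA of the Myh7 locus known to restrain chromatin remodelling by Brg1, ran at 74.2 ± 10.1 against 59.1 ± 4.49 CPM, with 0.31 (SE 0.06, adjusted p 0.000627). In the 9 libraries this row read 50.95 to 55.5 CPM in WT/WT, 62.3 to 64.2 in WT/E3A and 58.5 to 62.1 in E3A/E3A. Both E3A groups lay above WT/WT, with log2 fold changes of 0.23 (SE 0.05, adjusted p 0.459) and 0.18 (SE 0.05, adjusted p 0.263) that were not called. Within prefix C3 the WT/WT heart read 54.64 CPM, the WT/E3A heart 62.39 and the E3A/E3A hearts 62.05 and 61.38. Of all genes, 6.44% had every WT/E3A heart above every WT/WT heart, beside the 7.19% for E3A/E3A.

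Genes around the myosin chains were read from 10 lists, of which 84 genes were tested. In the noted libraries 40 were called higher and 28 lower. Of all genes tested, 37.0% were called higher and 38.2% lower, and the counts per list below are to be read beside these shares. In each of the 6 genotype fits 0 were called by edgeR, and the lowest adjusted p was 0.113. An unadjusted p under 0.05 was found in the 9 libraries for 14, 13 and 10 of them (16.7%, 15.5% and 11.9%), beside 7.69%, 6.36% and 6.91% of all genes, and in the 13 libraries for 0, 0 and 2. The other sarcomeric heavy chains, those of skeletal, embryonic and extraocular muscle (7 listed), stayed at or below 0.275 CPM in all hearts and were not tested.

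All 4 non-muscle and smooth muscle heavy chains were called higher in the noted libraries, with a median log2 fold change of 1.30 beside -0.02 for all genes. Myh14 went from 197.3 ± 10.9 to 756 ± 329 CPM (1.94), Myh9, the main non-muscle heavy chain of stromal cells, from 295 ± 24.6 to 791 ± 253 CPM (1.43), Myh11 of smooth muscle by 1.17 and Myh10 by 0.90. Of 9 other light chains tested, 6 were called higher and 1 lower, with a median of 0.48. Myl6b (1.23), Myl6 (0.71), Mylpf (0.52) and Myl1 (0.48) had the largest shifts among those called higher, and Myl12b fell by 0.33. Total counts alone left 2 higher and 2 lower, and Myl12a and Myl9 changed sign. The atrial light chain Myl4 had 71.1 ± 30.5 CPM in the noted libraries against 33.0 ± 23.7, a log2 fold change of 1.11 (SE 0.53) with an adjusted p of 0.0776.

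Among 9 tested thick filament and M-band partners, 7 were called higher and 1 lower, with a median of 0.98. Mybpc3, the cardiac myosin binding protein, went from 6136 ± 377 to 13484 ± 3250 CPM (1.14). Obsl1 (1.49) and Mybpc2 (1.21) moved the same way. Ttn, the titin spring that sets thick filament length, went the other way, from 6923 ± 435 to 4571 ± 683 CPM (-0.61).

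Enzymes that set light chain phosphorylation were divided, with 4 of 7 called higher and 3 lower (median 0.29, but -0.00 with total counts alone, which left 2 higher and 3 lower). The cardiac light chain kinase Mylk3 went from 616 ± 28.6 to 1033 ± 193 CPM (0.76), and the phosphatase subunit Ppp1r12c was higher by 1.76. Mylk4 fell by 1.01 and the catalytic subunit Ppp1cb fell by 1.28. Of 9 genes of myosin folding and turnover, 5 were called higher and 1 lower (median 0.36, and 4 and 4 with total counts alone). The myosin chaperones Unc45a (1.46) and Unc45b (0.86) and the muscle ubiquitin ligases Trim54 (1.18) and Trim63 (0.95) were among those that rose.

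Genes that act on myosin transcription were read beside all genes, of which 38.2% were called lower and 37.0% higher. Of 18 transcription factors, 10 were called lower and 5 higher, with a median of -0.34 (13 and 3 with total counts alone, median -0.63). Mef2a (-1.59), Mef2c (-1.51), Nfatc3 (-0.997) and Tead1 (-0.93) had the largest shifts. Of 8 regulators tied to the intronic microRNAs, 6 were called lower and 0 higher, with a median of -0.98 (8 and 0 with total counts alone, median -1.26). Med13, a Mediator subunit and known target of miR-208a, went from 103.0 ± 6.58 to 35.4 ± 12.7 CPM (-1.60), Sp3 from 55.2 ± 2.61 to 18.5 ± 7.08 CPM (-1.66) and Sox6, a repressor of slow muscle genes, from 33.8 ± 3.33 to 16.3 ± 3.76 CPM (-1.06). Mstn (-1.73) was at the edge of detection, at 0.523 and 0.172 CPM.

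Of 10 genes of thyroid hormone and retinoid signalling, which controls the switch between Myh6 and Myh7, 4 were called lower and 3 higher (median -0.24, and 6 and 2 with total counts alone, median -0.53). Thra, the main cardiac thyroid hormone receptor, went from 110.5 ± 8.11 to 162.5 ± 21.5 CPM (0.57). Thrb (-0.86) and the coactivator Ncoa1 (-0.61) fell, and Rxrb rose by 0.65. Of 10 fetal and stress genes, 6 were called higher and 2 lower (median 0.53, and 4 and 4 with total counts alone). Nppa, the atrial natriuretic peptide gene, went from 161.8 ± 53.1 to 475 ± 72.0 CPM (1.54), Tnni1 was higher by 1.41 at under 1 CPM, Rcan1 was higher by 0.66 and Xirp2 fell by 0.91.

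**Figure D5:**
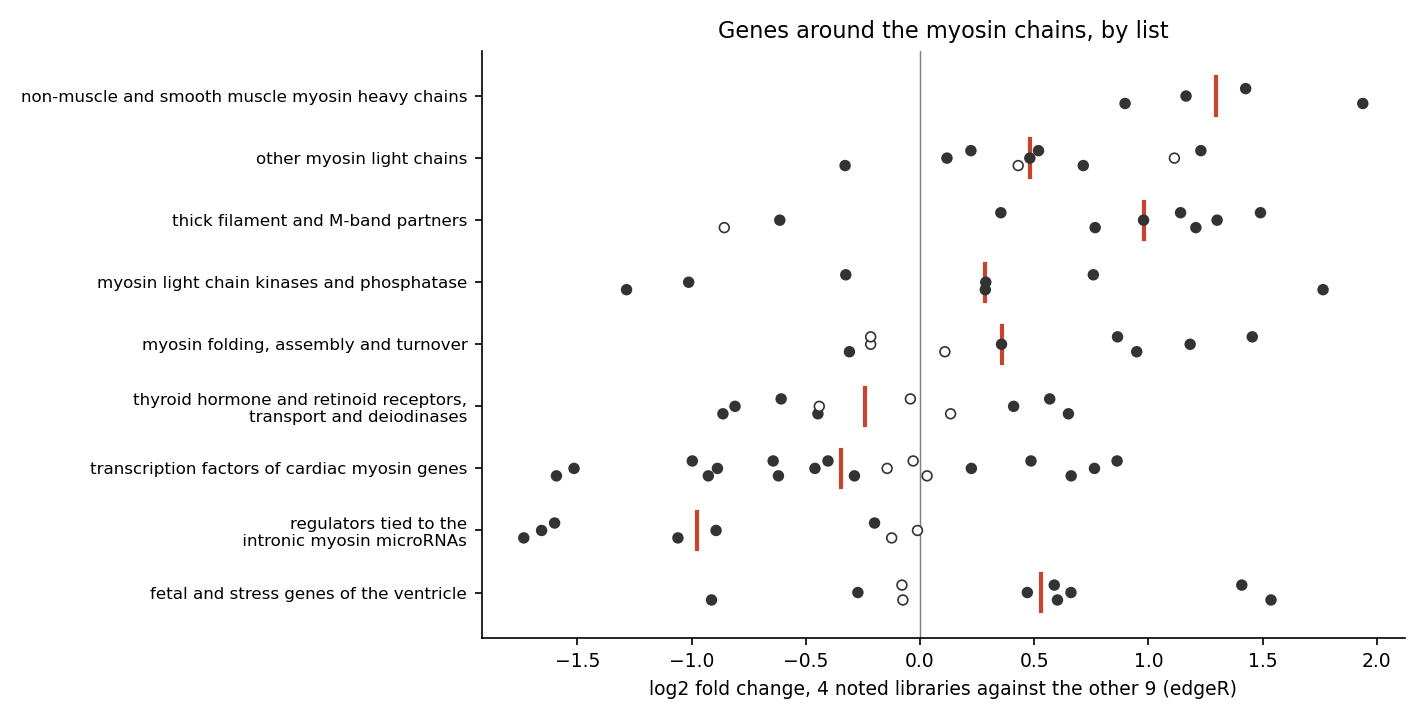
Log2 fold change, 4 noted libraries against the other 9 (edgeR), of every tested gene in 9 lists around the myosin chains; filled points passed an adjusted p of 0.05, open points did not, and red bars are medians. Non-muscle heavy chains (median 1.30) and thick filament partners (0.98) lie to the right, and regulators tied to the intronic microRNAs (-0.98) to the left.

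Between genotypes the medians of the same lists stayed near 0 in the 9 libraries. Median log2 fold changes for E3A/E3A over WT/WT ran from -0.03 (regulators tied to the microRNAs) to 0.17 (other light chains). Single genes moved further: of 10 fetal and stress genes 9 lay above 0 (median 0.135, beside 0.001 for all genes), and 0 were called. Among them Nppa, also an atrial marker, stood at 0.69 (SE 0.27, adjusted p 0.641) and Ankrd1 at 0.24 (SE 0.12, adjusted p 0.717). Mybpc3 ran at 5826 ± 161 CPM in WT/WT, 6196 ± 525 in WT/E3A and 6386 ± 155 in E3A/E3A (adjusted p 0.599 for the last against the first), and Ttn at 6972 ± 204, 6960 ± 645 and 6836 ± 531 CPM (adjusted p 0.976). Actc1, the cardiac actin counted with the fetal genes, ran at 9371 ± 360, 10231 ± 713 and 10242 ± 399 CPM (adjusted p 0.61). Myh9 ran at 272 ± 11.98, 301 ± 8.95 and 312 ± 30.8 CPM (adjusted p 0.371), Mylk3 at 588 ± 15.2, 641 ± 18.9 and 619 ± 23.5 CPM (adjusted p 0.783), and Myl12a at 497 ± 22.3, 486 ± 4.34 and 492 ± 0.829 CPM (adjusted p 0.978). Thra ran at 114.2 ± 11.3, 106.4 ± 9.36 and 110.8 ± 1.503 CPM, with an adjusted p of 0.956.

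Defining cardiomyocyte genes did not move as 1 group with the myosin chains. Of 12 markers, 4 were called higher and 4 lower in the noted libraries, beside 37.0% and 38.2% of all genes. Their median log2 fold change was -0.08 (4 and 8 with total counts alone, median -0.37). The thin filament genes Tnnt2 (1.31), Tnni3 (1.37), Tnnc1 (1.46) and Tpm1 (1.28) were the 4 that rose. Pln, the phospholamban gene, fell by 2.18, from 6089 ± 245 to 1501 ± 800 CPM, and Actc1 ran at 9539 ± 749 against 9948 ± 621 CPM (adjusted p 0.212). The summed marker level was 93481 to 109884 CPM in the noted libraries and 74190 to 82009 in the rest, with none at 0.

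Markers of other cells also differed, as did 75.2% of all genes, and their part in the myosin values was not tested. The summed level of 8 fibroblast markers was 1858 to 4377 CPM in the noted libraries and 1209 to 1407 in the rest, with 4 called higher and 4 lower. Within that list Col3a1 rose from 358 ± 29.7 to 1332 ± 643 CPM, and Lum fell from 49.0 ± 4.14 to 15.9 ± 6.49 CPM. For 8 macrophage markers the sum was 265 to 305 against 190.7 to 240.1 CPM, with 4 called higher and 3 lower. For 5 brown adipocyte markers it was 399 to 546 against 251 to 286 CPM, with 2 of 3 tested called higher. Most of that sum in the 9 libraries was Cox8b, with means of 253.5 CPM in WT/WT, 248.3 in WT/E3A and 253.6 in E3A/E3A. Ucp1 of the same list was at 0 in every E3A/E3A library and in the WT/WT libraries that were not noted. The sums overlapped for the other 9 lists: endothelium (3 of 8 tested called higher, 3 lower), smooth muscle (1 of 6 higher, 3 lower), atrium (2 of 8 higher, 1 lower), skeletal muscle (6 of 7 higher, 1 lower), nerve (3 of 4 higher, 1 lower), epicardium (2 of 6 higher), white adipocytes (1 of 6 higher), lymphocytes (1 of 3 lower) and blood (0 of 1). In the blood list the 4 globin genes were at 0 in both sets, and Th of the nerve list was at 0 in the noted libraries.

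Across the 9 hearts that were not noted, log2 CPM of the 2 light chains ran together (Pearson r 0.93), as did Myh7 and Myh7b (0.81), while Myh6 and Myh7 did so weakly (0.23). These are descriptions over 9 libraries that share their scaling, and how many other pairs of genes reach such values was not computed. The genes named next are the highest of 8736 for each member, so their high values come in part from that choice. Of 8736 genes with at least 10 CPM, the 5 most alike in pattern to Myh6 were Hspg2 (0.96), Lrp10 (0.94), Atxn2 (0.94), Arnt (0.94) and Arhgap35 (0.93). For Myh7 they were Tnks1bp1 (0.98), 2900026A02Rik (0.95), Ppp1r18 (0.95), Ctsz (0.93) and St6galnac4 (0.92), and for Myh7b Spr (0.95), Rpl13 (0.94), Hyal2 (0.94), Srrt (0.92) and Rpl12 (0.92). For Myl2 they included Psmb4 (0.96), Scnm1 (0.94), Cyb5r3 (0.94) and Smim20 (0.93), and for Myl3 Dscr3 (0.95), Stk38 (0.94), Ict1 (0.94), Ulk3 (0.93) and Hdac3 (0.93). No other member was among the 5 genes most alike to any member.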

How the data were processed

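Poly(A) RNA of 13 mouse hearts was measured as read counts per gene symbol, which the authors deposited as 1 table per heart with 24061 symbols each. The submitters' processing notes name STAR 2.4.0, featureCounts 1.4.4 and the build mm10 (GRCm38). How strand and multiply matching reads were handled is not given in the sources used here. Genotype, note and title prefix came from the labels, and depth ran from 20.1 to 52.6 M reads. Intervals of spread refer to these hearts, which the labels describe as separate animals, and reads lack molecular identifiers.

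Counts were tested with edgeR 4.0.16 under R 4.3.3, as a robust quasi-likelihood F test after TMM scaling and filterByExpr on genotype, with Benjamini-Hochberg adjustment over every tested gene; called means an adjusted p under 0.05. One model held the 3 genotypes, another added the note to genotype, and the last let the effect of the note differ by genotype. CPM per heart were computed after TMM over 13 libraries. Log2 Myh7 to Myh6 read ratios were compared by exact two-sided permutation. Alternatives were DESeq2 1.42.0, limma-voom with quality weights (limma 3.58.1), other scalings, no low-count filter, prefix as a block, the note as a covariate and each library left out. Positions, transcripts and lengths came from GENCODE on GRCm38, and microRNAs from RefSeq GRCm38.p6.

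Named were the 5 members, up to 4 called genes of largest fold change per list (the 2 of highest mean CPM where none was called), and for each member the 5 genes of highest Pearson r of log2 CPM (0.1 CPM added) over 9 libraries among genes of at least 10 CPM. Some genes that this rule would name are not reported here. Other genes named (Ttn, Thra, Myl4, Myl12a, Myl9, Myl12b, Actc1, Pln and Ucp1 in the noted comparison) were chosen after their values were seen. The members, the 10 lists around them and the 13 marker lists were chosen with earlier results of these data known. The fits were tested on simulated counts.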

Additional observations from a re-analysis of the deposited data

Results flagged for a closer look

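Of 30 groups of 4 to 10 values checked, of which chance flags about 1 in 20, 9 held a heart far from the others, and each of these was a noted library. In WT/WT, replicate 1 was far above the others for Myh6 (111593.7 CPM, group median 39948.5), Myh7 (1393.2, median 654.8), Myh7b (984.7, median 234.6) and Myl3 (17257.7, median 4890.9). In WT/E3A, replicate 1 was far above for Myh6 (118014.7 CPM, group median 42645.0), Myh7 (1351.3, median 695.3), Myh7b (1088.0, median 247.3) and Myl3 (15752.6, median 4856.6), and it had the lowest Myh7 to Myh6 ratio (1.145 Myh7 reads per 100 Myh6 reads, median 1.618). For E3A/E3A, where 2 of 5 hearts were noted, no single heart stood apart in this way.

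The difference between noted and other libraries itself differed between genotypes for 4 of the 5 genes, with adjusted p of 0.00503 for Myh6, 0.00636 for Myh7b, 0.00334 for Myl2 and 0.0439 for Myl3, as did 22.5% of all genes tested. For Myh7, whose adjusted p was 0.111, leaving out E3A/E3A replicate 1 gave 0.0158. The value for Myl3 missed the threshold when any 1 of 10 other libraries was left out (adjusted p 0.054 to 0.109). WT/WT and WT/E3A have 1 noted heart each, so a difference between genotypes cannot be told apart from one between single hearts.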

How the results depend on the processing

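Of 540 alternative values of the 5 genes between genotypes, 0 passed an adjusted p of 0.05 (lowest 0.201) and 69 had the other sign, so no direction between genotypes was settled. The calls of Myh6, Myh7, Myh7b and Myl3 as higher in the noted libraries held under every alternative run, among which the prefix block rests on 1 noted heart. Counts of genes called moved most. For E3A/E3A against WT/WT in 13 libraries (1 in edgeR), DESeq2 called 24, limma-voom 58, the fit without a filter 0, the prefix block 0, the note as a covariate 8 and the 9 libraries 39, and leaving out 1 library gave 0 to 1. For WT/E3A against WT/WT (0) limma-voom called 5 and the 9 libraries 3, and for E3A/E3A against WT/E3A (0) DESeq2 called 4, limma-voom 16, the note as a covariate 1 and the 9 libraries 6. In 9 libraries, E3A/E3A against WT/WT (39) gave 98 in DESeq2, 71 in limma-voom, 10 with the prefix block and 8 to 43 with 1 library left out. WT/E3A against WT/WT (3) gave 19 in DESeq2, 6 in limma-voom, 5 without a filter, 0 with the prefix block and 0 to 12 with 1 library left out, and E3A/E3A against WT/E3A (6) gave 38 in DESeq2, 10 without a filter, 2 with the prefix block and 1 to 13. The cause was not tested.

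Signs turned as follows in 13 libraries (log2 values). E3A/E3A over WT/WT: limma-voom gave Myh6 0.056, Myh7b 0.177 and Myl3 0.046, the 9 libraries gave Myh6 0.035, Myh7b 0.11 and Myl2 -0.011, the prefix block Myh7 -0.092, and total counts Myl3 0.04. WT/E3A over WT/WT: the prefix block gave Myl2 0.07 and Myl3 0.16. E3A/E3A over WT/E3A: the prefix block gave Myh7 -0.19 and Myl3 -0.46, the note as a covariate Myh7 -0.002 and Myl3 -0.11, limma-voom Myh7b 0.14 and the 9 libraries Myh7b 0.10. In 9 libraries the prefix block gave Myl2 0.016 and Myl3 0.014 (E3A/E3A over WT/WT) and Myl3 0.007 (WT/E3A over WT/WT), and total counts gave Myh7b -0.012 (WT/E3A over WT/WT). For Myl2 in noted libraries, total counts gave -0.24, limma-voom -0.017 and the prefix block -0.23.

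With 1 library left out of 13, ranges were as follows. E3A/E3A over WT/WT: Myh6 -0.28 to 0.48, Myh7 -0.023 to 0.52, Myh7b -0.43 to 0.77, Myl3 -0.34 to 0.69. WT/E3A over WT/WT: Myh6 -0.47 to 0.65, Myh7 -0.30 to 0.40, Myh7b -0.86 to 0.96, Myl3 -0.74 to 0.63. E3A/E3A over WT/E3A: Myh6 -0.36 to 0.39, Myh7 -0.049 to 0.44, Myh7b -0.52 to 0.75, Myl3 -0.26 to 0.72. With 1 left out of 9 they were narrower. E3A/E3A over WT/WT: Myh6 -0.014 to 0.063, Myl2 -0.031 to 0.016, Myl3 -0.041 to 0.002. WT/E3A over WT/WT: Myh7b -0.052 to 0.111, Myl3 -0.056 to 0.001. E3A/E3A over WT/E3A: Myh7b -0.001 to 0.161, Myl3 -0.019 to 0.038. For Myl2 in noted libraries the range was -0.004 to 0.152.

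The log2 Myh7 to Myh6 ratio of WT/E3A over WT/WT ran from -0.144 to 0.084 with 1 heart left out, turning sign without WT/WT replicate 2 or WT/E3A replicate 1. Noted against other libraries it ran from -0.37 to -0.20 (exact permutation p 0.00808 to 0.0591). No paired analysis was possible because the labels give no replicate numbers shared between genotypes.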
